A study of Mus musculus with 4 samples.

Results

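The 40 genes listed for the identity of monocytes and macrophages were followed across 4 mouse RNA-seq libraries, and 39 of them were among the 14323 genes of the table. They were chosen by name, 38 under the listed symbol and 1, Emr1 (the F4/80 antigen), under its present symbol Adgre1, and Ly86 was not analysed here. Colonies were grown from 100 ST-HSCs (short-term haematopoietic stem cells) or MPP2 cells (a class of multipotent progenitor biased to megakaryocyte and erythroid fates) of C57BL/6 mice, for 5 to 7 days in 1% methylcellulose with SCF at 25 ng/ml and IL-6, IL-3 and GM-CSF at 10 ng/ml each. The 4 groups were ST-HSC with ethanol, ST-HSC with 4-hydroxytamoxifen (4OHT) at 0.05 µM, MPP2 with ethanol and MPP2 with 4OHT, with 1 library each. All cells came from the study's model mouse, in which 4OHT switches on the leukaemia fusion MLL-ENL, so the ethanol cultures are cells of the same mouse model without the drug. The labels do not give the promoter or Cre that drives the fusion, the number of animals, or a 4OHT culture without the fusion allele, and the effects of 4OHT itself and of the fusion cannot be told apart.

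Monocytes arise from myeloid progenitors and become macrophages when signals such as M-CSF act on their receptor, the product of Csf1r. These cells recognise microbes and dying cells through C-type lectins, Fc receptors and TREM2, many of which signal through small adaptors with an ITAM, a tyrosine motif that recruits the kinase SYK, while receptors with an ITIM recruit phosphatases and dampen the response. Genes such as Ly6c2 and Cd93 are typical of monocytes and their precursors, and genes such as Gpnmb, Trem2 and Fabp4 are typical of lipid-loaded, mature macrophages.

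The promoters of members that carry the comparisons below are shown first, as the 250 bases before the RefSeq start on GRCm38.p6, 5′ to 3′ on the gene's own strand. Of the 39 members, 29 had an entry in the RefSeq promoter table. Gpnmb and Trem2 are shown because they were at least 2-fold higher with 4OHT in both cell types, and Fcgr1 because it stood apart from the other Fc receptors. Capitals mark matches on either strand to any of 4 motifs, the PU.1 box GAGGAA, the ISRE core of interferon-responsive genes, the STAT element TTCNNNGAA and TCANGTG, which MITF and TFE factors bind. PU.1 is a factor known for myeloid genes.
Gpnmb, chr6:49036268-49036517, plus strand: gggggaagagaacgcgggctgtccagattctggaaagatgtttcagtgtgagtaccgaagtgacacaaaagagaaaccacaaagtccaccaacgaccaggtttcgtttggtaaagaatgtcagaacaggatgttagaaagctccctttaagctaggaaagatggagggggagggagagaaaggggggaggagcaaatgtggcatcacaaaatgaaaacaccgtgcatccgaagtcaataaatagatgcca
Trem2, chr17:48346151-48346400, plus strand: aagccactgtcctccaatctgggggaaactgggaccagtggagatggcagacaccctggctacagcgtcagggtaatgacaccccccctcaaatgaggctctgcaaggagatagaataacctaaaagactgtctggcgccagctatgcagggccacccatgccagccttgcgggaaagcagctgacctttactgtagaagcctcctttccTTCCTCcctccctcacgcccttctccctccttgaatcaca
Fcgr1, chr3:96293970-96294219, minus strand: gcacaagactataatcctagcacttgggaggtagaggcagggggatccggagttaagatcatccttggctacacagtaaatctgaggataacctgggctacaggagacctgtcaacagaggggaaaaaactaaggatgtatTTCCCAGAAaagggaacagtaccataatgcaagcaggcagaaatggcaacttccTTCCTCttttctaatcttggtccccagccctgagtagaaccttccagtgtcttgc
GAGGAA was found in 16 of the 29 member promoters (55.17%) and in 25.85% of the 27025 genes in the table. TTCNNNGAA was found in 1 of the 29 (3.45%), Fcgr1, against 8.13% of all genes. The ISRE core was in 3 members (10.34%), Aif1, Fcgr4 and Spp1, against 3.46%, and TCANGTG was in 4 (13.79%) against 13.85%. A gene counts once, whichever of its listed starts holds a match, and GAGGAA can overlap the ISRE core. These are matches of letters in the window, with no measurement of binding.

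The neighbours Ms4a6b and Ms4a6c are shown as a pair because both were higher with 4OHT in ST-HSC cultures and low in MPP2 cultures. Ms4a4c, not shown, was also highest in ST-HSC with 4OHT. Ms4a6b had only 6 reads in each MPP2 library. The transcripts of the pair share sequence, so their counts may not be independent, and a part of the promoter run was not tested. Capitals mark the longest run that both windows hold, 48 bases, from base -118 to -71 before the start of Ms4a6b and from -49 to -2 before that of Ms4a6c.
Ms4a6b, chr19:11518309-11518558, plus strand: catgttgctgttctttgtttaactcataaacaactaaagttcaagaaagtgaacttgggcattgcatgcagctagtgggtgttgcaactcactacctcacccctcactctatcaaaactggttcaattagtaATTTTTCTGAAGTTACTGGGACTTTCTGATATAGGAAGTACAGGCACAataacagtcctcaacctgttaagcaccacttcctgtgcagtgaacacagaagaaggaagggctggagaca
Ms4a6c, chr19:11469118-11469367, plus strand: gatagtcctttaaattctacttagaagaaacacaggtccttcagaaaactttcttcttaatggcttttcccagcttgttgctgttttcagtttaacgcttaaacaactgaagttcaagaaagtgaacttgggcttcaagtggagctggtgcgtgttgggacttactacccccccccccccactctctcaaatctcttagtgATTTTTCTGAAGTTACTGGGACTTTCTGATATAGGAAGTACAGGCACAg

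Whole reads were recovered from the deposited values, and depth was 12907412 to 14317891 reads per library. Levels are normalized counts, on a scale where 1 read is worth 0.0695 to 0.0802. The parent genes of the fusion, Kmt2a (80.3 and 72.1 in the ethanol and 4OHT cultures of ST-HSCs, 91.1 and 84.2 in those of MPP2 cells, the order kept throughout) and Mllt1 (60.1, 62.7, 50.9 and 59.0), cannot be separated from it in counts per gene, so induction was not checked. Slamf1, which encodes CD150, a surface protein that marks MPP2 cells, had 0 reads in both ST-HSC libraries and 44 and 31 in MPP2, and Kit stood between 76.4 and 92.9 in all 4. Neutrophil markers had the highest sum of the marker lists in every library, and the labels name no sort of the colony cells before RNA extraction. In bulk libraries fewer cells of a type and less RNA per cell cannot be told apart. With 1 library per group, a difference between a pair of libraries has no replicate check, and the intervals below cover counting error only. They take the deposited scaling as given. A read was worth 0.0722 in MPP2 with ethanol and 0.0802 in MPP2 with 4OHT, so small ratios there depend on that scaling.

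Together the 39 members took 0.62% of reads in ST-HSC with ethanol, 0.847% in ST-HSC with 4OHT, 0.905% in MPP2 with ethanol and 1.11% in MPP2 with 4OHT. Their summed level was 6174, 8308, 8952 and 11536 normalized counts in that order. Per kilobase of exon, Lyz2 was far above the others, with a mean over libraries of 1424, followed by Spp1 at 465, Tyrobp at 414, Ly6c2 at 337 and Lgals3 at 267. At the other end, Aif1, which encodes the macrophage actin-binding protein IBA1, had 2, 5, 2 and 4 reads, and Cx3cr1, the fractalkine receptor of patrolling monocytes and tissue macrophages, had 8, 6, 11 and 20. These 2 genes did not reach a mean of 1 normalized count, so 37 members entered the comparisons, as did 11370 genes in all.

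**Figure D1:**
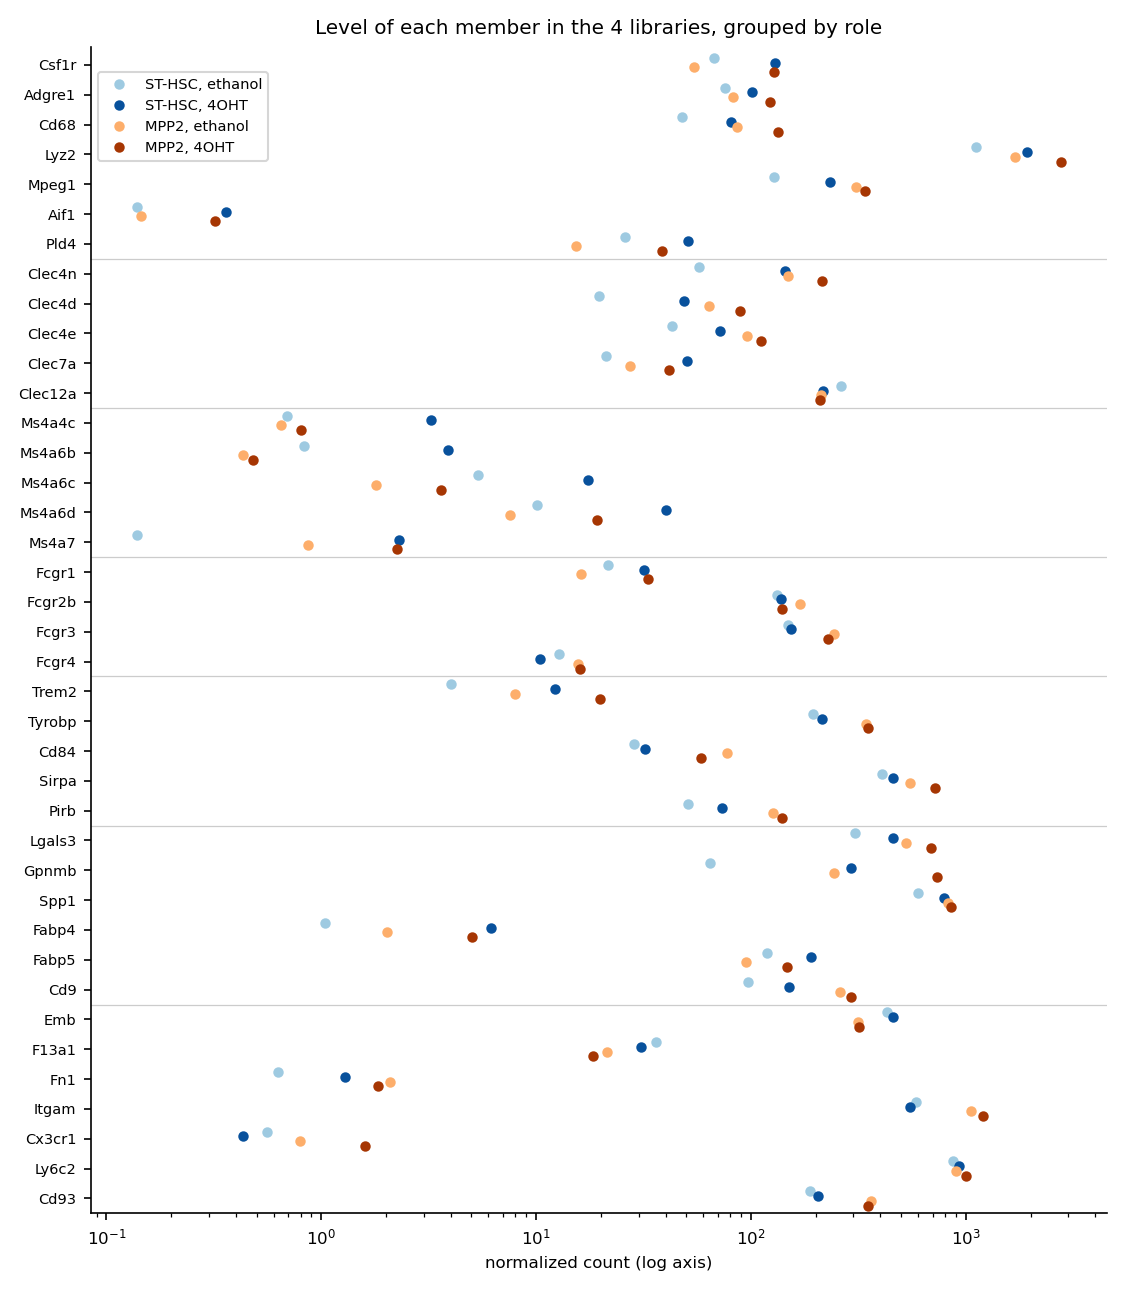
Normalized count (log axis) of each of the 39 members in the 4 libraries, 1 point per library, with horizontal lines between role groups. Lyz2 lies highest, at 1113 to 2768, and Aif1, Ms4a4c, Ms4a6b, Ms4a7, Fn1 and Cx3cr1 lie below 4 in every library.

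In ST-HSC cultures 33 of 37 members were higher with 4OHT than with ethanol, and in MPP2 cultures 30 of 37. Among all tested genes 49.3% and 49.7% were higher. The members were listed with earlier results of these data known, so their difference from all genes is no independent test. The median log2 difference of the members was 0.67 in ST-HSC and 0.22 in MPP2, against -0.004 and -0.002 over all tested genes. Calls of 2-fold are made on log2 values after adding 0.5, which shrinks the difference of low genes. At least 2-fold higher were 11 members in ST-HSC, where 2.1% of all tested genes were, and 8 in MPP2, where 1.32% were. No member was 2-fold lower in either, against 0.545% and 1.7% of all tested genes. The 5 members at least 2-fold higher in both were Gpnmb, Trem2, Ms4a6d, Ms4a7 and Fabp4, and 0.756% of all tested genes did the same. Ms4a4c and Ms4a6b were below 1 normalized count in every library but ST-HSC with 4OHT. Ms4a7 was below 1 in both ethanol libraries. These genes passed the filter through the libraries where they were high, so their place in the counts follows in part from it. With a mean of at least 5, the counts were 7 (1.31%) and 6 (0.872%) of 32 members.

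The shared 4OHT effect was tested with limma, in a model of cell type and treatment over the 4 libraries that leaves 1 residual degree of freedom. No member passed an adjusted p of 0.05 in either direction, and 0.044% of all tested genes passed as higher and 0.0088% as lower. The lowest adjusted p of the members was 0.0779, for Gpnmb, Trem2 and Ms4a6d. At an unadjusted p under 0.05, 19 of 37 members were higher and 0 lower, against 7.02% and 7.19% of all tested genes. Other tools on the same libraries called members as higher and none as lower. edgeR on the recovered reads called 17 members (2.47% of all tested genes), limma with a mean-variance trend 18 (2.96%) and DESeq2 11 (1.03%), and 11 members were called by all 3 of these tools. They were Csf1r, Cd68, Lyz2, Pld4, Clec4d, Clec7a, Ms4a6d, Trem2, Lgals3, Gpnmb and Fabp5. Since the call depends on the tool, the values below are given as levels and ratios.

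**Figure D2:**
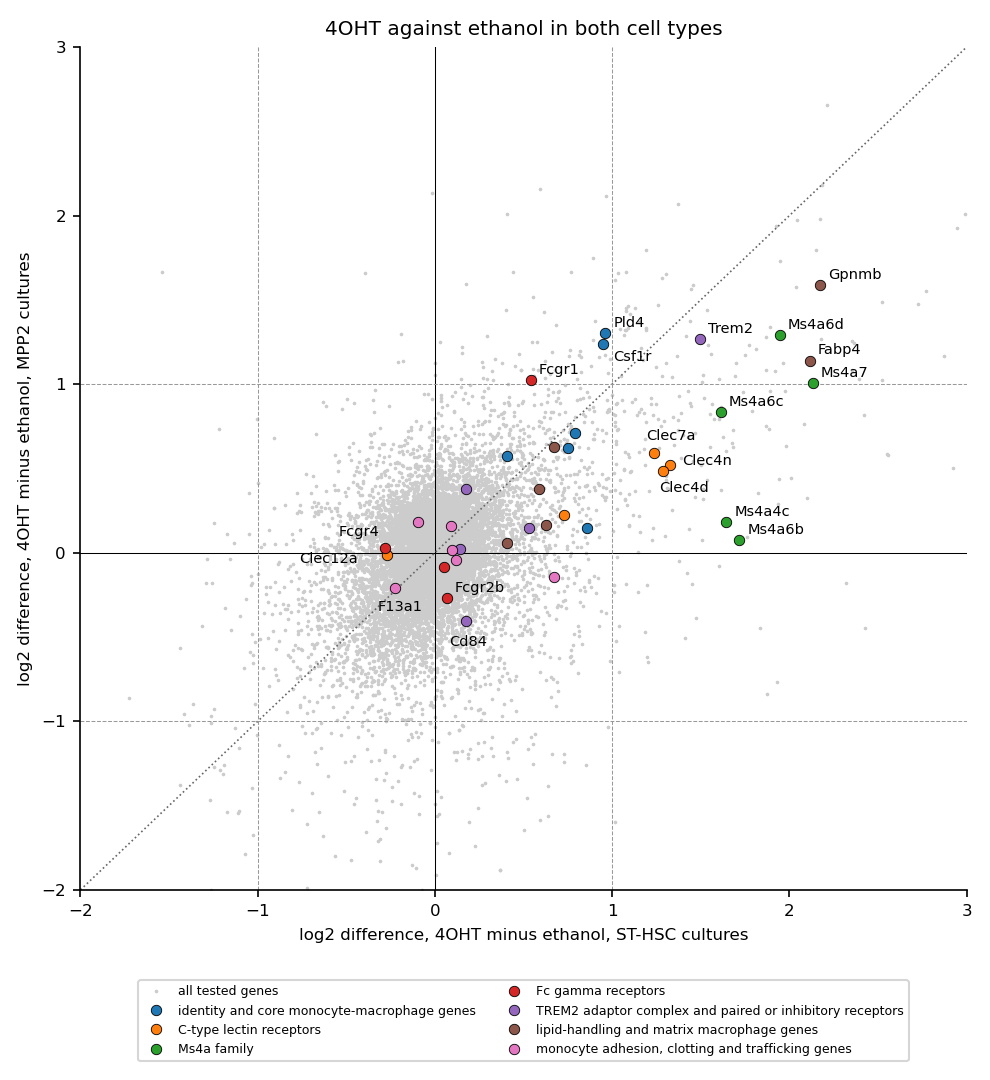
Log2 difference between 4OHT and ethanol in ST-HSC cultures (x axis) and MPP2 cultures (y axis), 1 coloured point per member by role and 1 grey point per tested gene, with dashed lines at 2-fold and a dotted line of equal difference. Of all tested genes 53 lie beyond the axes and are not drawn. Most members lie in the upper right part, with Gpnmb highest on both axes.

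The genes of core identity stood higher with 4OHT in both cell types. Csf1r, the M-CSF receptor, stood at 67.0, 129.6, 54.2 and 128 normalized counts. Both 4OHT libraries were above both ethanol libraries, with ratios of 4OHT to ethanol of 1.93 in ST-HSC (1.79 to 2.09, the 95% interval of counting) and 2.37 in MPP2 (2.17 to 2.59). The shared log2 effect was 1.09 ± 0.142 (SE), with an adjusted p of 0.0895 in limma and 0.000454 in edgeR. Pld4, an endolysosomal nuclease of myeloid cells, followed the same order at 25.9, 50.7, 15.4 and 38.7, with ratios of 1.96 (1.73 to 2.23) and 2.52 (2.14 to 2.97).

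Lyz2, the lysozyme gene whose promoter is widely used to mark myeloid cells, stood at 1113, 1924, 1692 and 2768 normalized counts. Its ratios were 1.73 and 1.64. Of the 31-base words of its sequence, 32.8% also occur in transcripts of other genes, Lyz1 sharing the most, so its count is uncertain. Cd68, a lysosomal membrane protein of macrophages, stood at 48.0, 81.1, 86.4 and 133, with ratios of 1.69 and 1.54. Adgre1, the F4/80 antigen of mature macrophages, stood at 76.1, 101, 82.2 and 123, a smaller difference with ratios of 1.33 and 1.49. Mpeg1, the pore-forming perforin-2, had the larger ratio in ST-HSC. It stood at 128 and 232 in ST-HSC, a ratio of 1.81 (1.71 to 1.92), and at 308 and 341 in MPP2, a ratio of 1.11 (1.06 to 1.16). The MPP2 reads were 4265 of 13705519 with ethanol and 4250 of 12907412 with 4OHT. As a share of all reads Mpeg1 was higher with 4OHT, but the size of that ratio depends on the scaling.

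Among the C-type lectins, the 3 neighbours Clec4n, Clec4d and Clec4e, which lie within 60.0 kb of chromosome 6 (123229843 to 123289870, mm10), shared 1 pattern. Clec4n encodes dectin-2, which binds fungal mannans, and stood at 57.1, 144, 148 and 213 normalized counts. Clec4d encodes a partner receptor of it and of Mincle, and stood at 19.6, 48.6, 63.6 and 89.2. Clec4e encodes Mincle, a receptor for mycobacterial glycolipid, and stood at 43.0, 71.7, 95.6 and 112. ST-HSC with ethanol was lowest and MPP2 with 4OHT highest for each of the 3. The 4OHT to ethanol ratio was larger in ST-HSC, at 2.52 (2.32 to 2.74) for Clec4n, 2.48 (2.15 to 2.86) for Clec4d and 1.67 (1.51 to 1.84) for Clec4e. In MPP2 it was 1.44 (1.35 to 1.52), 1.40 (1.28 to 1.53) and 1.17 (1.08 to 1.26). This pattern is not particular to the locus. Mpeg1, Lgals3 and Spp1, on other chromosomes, had the same lowest and highest library and the larger ratio in ST-HSC, among other members.

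The other 2 lectins lie further along the same chromosome (129342691 to 129472779), and their values differed in direction. Clec7a, dectin-1, a receptor for fungal β-glucan, stood at 21.1, 50.3, 27.3 and 41.4, with ratios of 2.39 (2.08 to 2.74) and 1.52 (1.33 to 1.74). Clec12a, an inhibitory receptor with an ITIM, stood at 262, 217, 212 and 210.4. Unlike the other 4 lectins it was not higher with 4OHT in either cell type, with ratios of 0.828 (0.789 to 0.869) and 0.990 (0.939 to 1.044).

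The Ms4a genes encode membrane proteins with 4 crossings, and the 5 members lie in one cluster of 284 kb on chromosome 19 (11321039 to 11604849). All 5 were at least 2-fold higher with 4OHT in ST-HSC cultures, and 2 of them, Ms4a6d and Ms4a7, in MPP2 cultures. Ms4a4c and Ms4a6b passed the filter only through ST-HSC with 4OHT, and Ms4a7 only through its 4OHT libraries. Their place among the 5 therefore follows in part from the filter. Ms4a6d stood at 10.1, 40.2, 7.58 and 19.3 normalized counts, with ratios of 3.99 (3.32 to 4.82) and 2.54 (2.01 to 3.23). Ms4a6c stood at 5.35, 17.4, 1.80 and 3.61, with ratios of 3.25 (2.50 to 4.25) and 2.001 (1.20 to 3.41). In both genes the ST-HSC culture with 4OHT was the highest library, by more than the counting intervals.

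The remaining Ms4a genes were read from few molecules. Ms4a4c had 10, 45, 9 and 10 reads, with a ratio of 4.65 (2.31 to 10.3) in ST-HSC cultures and 1.24 (0.451 to 3.44) in MPP2 cultures. Ms4a6b had 12, 54, 6 and 6 reads, with ratios of 4.65 (2.46 to 9.55) and 1.11 (0.297 to 4.16). For both genes ST-HSC with 4OHT was the single high library. Ms4a7, which is typical of mature macrophages, had 2, 32, 12 and 28 reads, so both 4OHT libraries were high, with ratios of 16.5 (4.22 to 142) and 2.59 (1.28 to 5.60). The paralogs share sequence, with 21.9% of the 31-base words of Ms4a6c and 17.1% of those of Ms4a4c found in other transcripts. Their counts are uncertain to that extent. Ms4a6b shares the most with Ms4a6c, and 7.84% of the words of Ms4a6b occur elsewhere, most in Ms4a6c.

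The Fc receptors for IgG showed no common difference with 4OHT. Fcgr1, the high-affinity receptor, stood at 21.7, 31.8, 16.1 and 33.2 normalized counts, with ratios of 1.46 (1.26 to 1.70) in ST-HSC cultures and 2.06 (1.75 to 2.44) in MPP2 cultures. The other 3 form a cluster on chromosome 1 (170958617 to 171064935), and their log2 differences ran from -0.28 to 0.07 in both cell types. Fcgr3, an activating receptor, stood at 149, 154, 243 and 228. Fcgr2b, the inhibitory receptor with an ITIM, stood at 131.5, 138, 169 and 139.7, and Fcgr4, an activating receptor, at 12.8, 10.4, 15.7 and 15.965. Fcgr3 shares 13.4% of its 31-base words with transcripts of other genes, Fcgr2b sharing the most.

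TREM2 is a lipid-sensing receptor that signals through the ITAM adaptor made from Tyrobp (DAP12). Trem2 stood at 4.03, 12.3, 7.94 and 19.8 normalized counts, with both 4OHT libraries above both ethanol libraries and ratios of 3.05 (2.25 to 4.18) and 2.50 (1.99 to 3.15). Its shared log2 effect was 1.38 ± 0.136 (SE), with an adjusted p of 0.0779 in limma and 0.00196 in edgeR. Tyrobp stood at 195, 215, 345 and 350.4, with ratios of 1.11 (1.05 to 1.16) and 1.02 (0.975 to 1.06). Per kilobase the adaptor was far above its receptor in every library, and its values lay close together between ethanol and 4OHT.

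The ITIM receptors Sirpa, which binds the "do not eat me" protein CD47, and Pirb, which binds MHC class I, had ratios above 1 in both cell types. Neither was called for the shared 4OHT effect by limma, edgeR or DESeq2. In MPP2 cultures Pirb had 1751 of 13705519 reads with ethanol and 1741 of 12907412 with 4OHT. Its share of all reads was higher with 4OHT, but the size of its ratio there depends on the scaling. Sirpa stood at 407, 459.5, 551 and 717, with ratios of 1.13 (1.09 to 1.17) and 1.30 (1.26 to 1.34). Pirb stood at 50.7, 73.4, 126 and 139.7, with ratios of 1.45 (1.31 to 1.59) and 1.11 (1.03 to 1.18), and 43.8% of its 31-base words occur in transcripts of other genes. Cd84, a SLAM-family receptor that binds itself on other cells, stood at 28.5, 32.2, 77.6 and 58.5. Its ratio was 1.13 (0.985 to 1.29) in ST-HSC cultures and 0.754 (0.685 to 0.829) in MPP2 cultures.

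Genes of lipid handling and matrix held the largest shared log2 effect of all members. Gpnmb, a glycoprotein of lysosome-rich macrophages, stood at 64.7, 293, 243 and 731 normalized counts. The ratio was 4.53 (4.22 to 4.87) in ST-HSC cultures and 3.01 (2.89 to 3.13) in MPP2 cultures, and the shared log2 effect was 1.88 ± 0.183 (SE), with an adjusted p of 0.0779 in limma. Fabp4, a fatty acid carrier of fat cells and macrophages, was scarce at 15, 86, 28 and 63 reads, with ratios of 5.93 (3.40 to 11.0) and 2.50 (1.58 to 4.06). Its neighbour on chromosome 3, Fabp5, the carrier that is more widely expressed, was abundant at 119, 190.2, 95.1 and 147 normalized counts, and the ratios were smaller, 1.60 (1.502 to 1.70) and 1.55 (1.44 to 1.66).

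Lgals3, which encodes galectin-3, stood at 306, 459.5, 528 and 688, with ratios of 1.503 and 1.30. Cd9, a tetraspanin also found on platelets, stood at 96.9, 150.1, 259.7 and 291, with ratios of 1.55 (1.45 to 1.66) and 1.12 (1.07 to 1.17). Spp1, osteopontin, stood at 597, 792, 822 and 854, with ratios of 1.33 (1.29 to 1.37) and 1.039 (1.01 to 1.07). In MPP2 cultures it had 11392 reads with ethanol and 10645 with 4OHT, so that ratio above 1 comes from the scaling. Cd9 and Spp1 share 10.8% and 14.3% of their 31-base words with other transcripts.

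**Figure D3:**
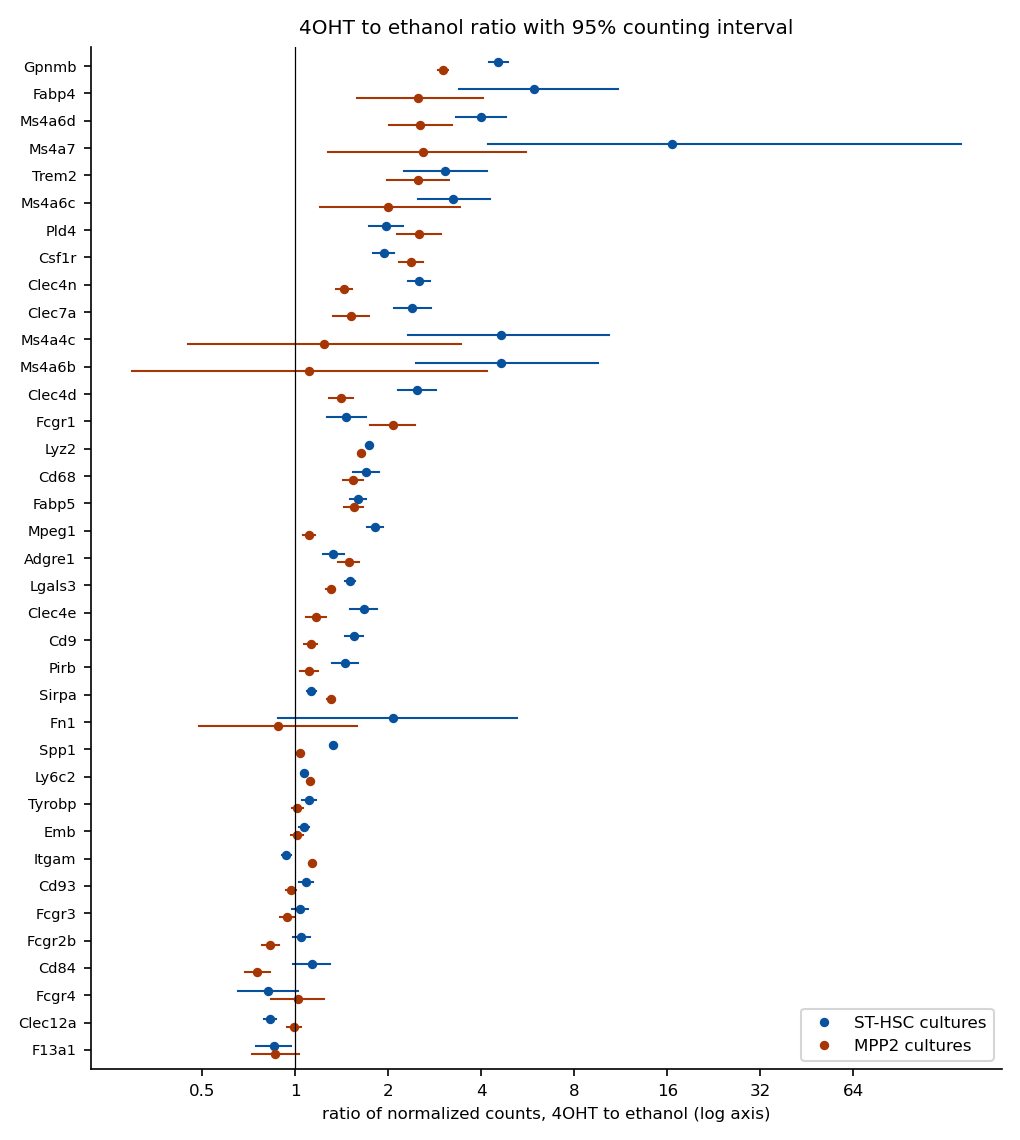
Ratio of normalized counts, 4OHT to ethanol (log axis), for the 37 members tested, with ST-HSC cultures in blue and MPP2 cultures in brown and bars for the 95% counting interval, ordered by shared effect. Gpnmb, Fabp4, Ms4a6d, Ms4a7 and Trem2 lie at the top, above 2 in both cell types, and Clec12a and F13a1 at the bottom, below 1.

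Among the genes of monocyte adhesion, clotting and trafficking, no tested gene reached 2-fold with 4OHT on the log2 scale in either cell type. Ly6c2, the surface antigen of classical monocytes, stood at 868, 926, 896 and 1002 normalized counts in the 4 libraries, with ratios of 1.07 and 1.12, and 23.7% of its 31-base words occur in transcripts of other genes, Ly6c1 sharing the most. Emb (embigin, a transporter chaperone) stood at 431, 460.4, 314 and 317, and Cd93, a receptor of early myeloid cells and endothelium, at 188, 204, 362 and 350.4. F13a1, the clotting factor XIII subunit carried by monocytes, stood at 36.0, 30.7, 21.4 and 18.5, lower with 4OHT in both cell types, with ratios of 0.852 (0.748 to 0.970) and 0.861 (0.722 to 1.03). Fn1, fibronectin, had 9, 18, 29 and 23 reads, too few to tell its ratios of 2.07 (0.882 to 5.22) and 0.882 (0.487 to 1.58) from 1. In this group of 7 genes 6 were tested, and the median log2 difference was 0.09 in ST-HSC and -0.01 in MPP2, while in the lipid and matrix group it was 0.65 and 0.50.

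Itgam, the CD11b integrin chain shared by monocytes and neutrophils, stood at 588, 550.3, 1059 and 1201 normalized counts, with ratios of 0.936 (0.908 to 0.966) in ST-HSC cultures and 1.13 (1.11 to 1.16) in MPP2 cultures. Both intervals exclude 1, in opposite directions. Its count is uncertain, since 68.1% of its 31-base words also occur in transcripts of other genes, the gene model Gm49368 sharing the most.

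The 4OHT to ethanol ratio was compared between the cell types gene by gene, without a test, since 1 culture stands for each group. The counting intervals lay apart with the higher ratio in ST-HSC for 15 of 37 members (10.0% of all tested genes) and with the higher ratio in MPP2 for 5 (11.2%), and overlapped for 17. The 5 are near that background share. Counting intervals are narrower for genes with more reads, and the shares over all tested genes were not matched to the members for level. The 15 were the 3 Clec4 genes, Clec7a, Ms4a6d, Mpeg1, Lgals3, Spp1, Cd9, Gpnmb, Lyz2, Pirb, Fcgr2b, Cd84 and Cd93. For Fcgr2b, Cd84 and Cd93 the ratio in MPP2 was below 1, at 0.829, 0.754 and 0.969. The 5 were Csf1r, Fcgr1, Sirpa, Clec12a and Itgam. Of the 37 members, 27 had the larger log2 difference in ST-HSC, as did 51.7% of all tested genes.

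Many members stood higher in MPP2 cultures than in ST-HSC cultures. In the same limma model, the shared effect of cell type passed an adjusted p of 0.05 as higher in MPP2 for 16 of 37 members and as lower for 2, and 9.88% and 5.31% of all tested genes did the same. The 16 were Cd68, Lyz2, Mpeg1, Clec4n, Clec4d, Clec4e, Fcgr3, Trem2, Tyrobp, Cd84, Pirb, Lgals3, Gpnmb, Cd9, Itgam and Cd93, and the 2 were Ms4a6c and F13a1. edgeR called 17 and 7 (16.5% and 14.0% of all tested genes) and DESeq2 15 and 3 (8.74% and 3.98%). With no filter on low genes limma called 3 as higher and 1 as lower (3.42% and 0.482% of 14323 genes). Summed markers of neutrophils, mast cells, eosinophils, megakaryocytes and erythroid cells were also higher in both MPP2 libraries (values at the end). Of the 15 neutrophil markers tested, 8 passed the same test as higher in MPP2 and 4 as lower. The part of these cell types in these calls was not tested.

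Among the members called as higher in MPP2, the largest effects were those of Gpnmb (log2 1.61 ± 0.183 SE, limma adjusted p 0.0136), Clec4d (1.27 ± 0.220, 0.0306), Cd9 (1.19 ± 0.164, 0.0206), Cd84 (1.14 ± 0.181, 0.0266) and Pirb (1.12 ± 0.153, 0.0202). Cd84 stood at 28.5 and 32.2 in ST-HSC and 77.6 and 58.5 in MPP2, so the cell types did not overlap. Tyrobp, at log2 0.76 ± 0.129 (adjusted p 0.0295), and its fellow adaptor gene Fcer1g both passed in this direction. Of the lower genes, Ms4a6c had log2 -1.73 ± 0.215 (limma adjusted p 0.0169) and F13a1 -0.73 ± 0.126 (0.0308). F13a1 was lower in both MPP2 libraries by similar ratios, 0.595 (0.514 to 0.687) with ethanol and 0.601 (0.510 to 0.708) with 4OHT.

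With ethanol, 10 members were at least 2-fold higher in MPP2 than in ST-HSC (6.27% of all tested genes) and 1 at least 2-fold lower (0.862%). With 4OHT the counts were 2 (5.39%) and 4 (1.71%). The 2 higher with 4OHT were Gpnmb, at 2.49-fold (2.40 to 2.59), and Itgam, at 2.18-fold (2.12 to 2.24). The 4 lower were all Ms4a genes. Ms4a4c and Ms4a6b passed the filter only through ST-HSC with 4OHT, the library compared with here. Their being lower follows in part from the filter, and with a mean of at least 5 the count was 2 (1.19%). Ms4a6c had a ratio of 0.208 (0.148 to 0.286), Ms4a6d 0.478 (0.410 to 0.558), Ms4a4c 0.248 (0.111 to 0.499) and Ms4a6b 0.124 (0.0436 to 0.288). Csf1r, at 129.6 and 128, did not differ between the cell types under 4OHT beyond counting error, with a ratio of 0.990 (0.925 to 1.06).

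**Figure D4:**
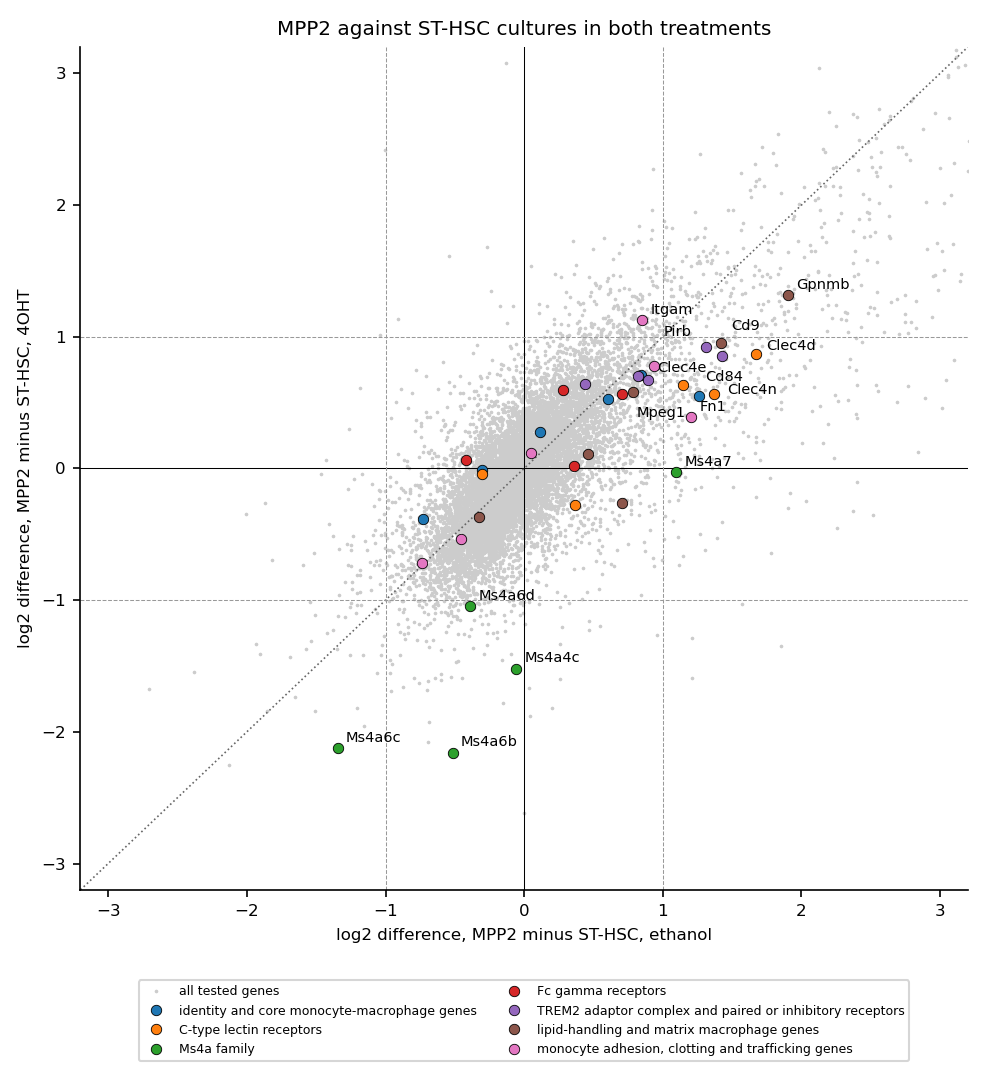
Log2 difference between MPP2 and ST-HSC cultures with ethanol (x axis) and with 4OHT (y axis), 1 coloured point per member by role and 1 grey point per tested gene, with dashed lines at 2-fold and a dotted line of equal difference. Of all tested genes 81 lie beyond the axes and are not drawn. Gpnmb, Cd9, Pirb, Cd84 and Clec4d lie to the upper right, and 4 Ms4a genes lie below -1 on the y axis.

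Other genes of the pathway were followed as lists. All had been listed by name with earlier results known. The 15 signalling partners of ITAM and ITIM receptors had median log2 4OHT differences of 0.07 in ST-HSC and 0.24 in MPP2. None reached 2-fold or passed the shared 4OHT test in limma, with 1 higher at an unadjusted p under 0.05 (7.02% of all tested genes). edgeR called 1 as higher (2.47%) and DESeq2 0 (1.03%). The highest per kilobase, Fcer1g, the ITAM adaptor of the activating Fc receptors and dectin-2, stood at 207, 222, 406 and 416. Of the 16 genes of the M-CSF axis and monocyte transcription factors, 15 were tested, with medians of 0.34 and 0.20. Cebpb, the highest of this list per kilobase, stood at 247, 279, 218 and 293. In the shared 4OHT test limma called 0 genes of this list, with 4 higher (7.02% of all tested genes) and 1 lower (7.19%) at an unadjusted p under 0.05. edgeR called 2 as higher (2.47%) and 1 as lower (1.86%), and DESeq2 called 0.

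A list of 20 other monocyte and macrophage genes had 13 tested. At least 2-fold higher with 4OHT were 7 of them in ST-HSC (2.1% of all tested genes) and 2 in MPP2 (1.32%), with medians of 1.02 and 0.38. In the shared 4OHT test limma called 0 of them, with 7 higher at an unadjusted p under 0.05 (7.02% of all tested genes). edgeR called 5 as higher (2.47%) and DESeq2 2 (1.03%). Ctss, the lysosomal protease cathepsin S, was the highest per kilobase, at 43.7, 110.03, 94.2 and 123. C1qb and C1qc, which encode complement C1q chains, had at most 9 reads in any library, and Cd163, Timd4 and C1qa were not analysed here.

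Markers of other cell types also differed between the libraries, and their part in the results above was not tested. The 16 neutrophil markers, 15 of them in the table, summed to 34408, 26047.5, 46056 and 45546 normalized counts, a 4OHT to ethanol ratio of 0.757 in ST-HSC and 0.989 in MPP2. Single markers differed from the sum, with 2 of 15 higher with 4OHT in ST-HSC and 10 of 15 in MPP2. The 13 mast cell and basophil markers, 12 in the table, summed to 237, 181, 1781 and 658. At least 2-fold lower with 4OHT were 4 of 11 tested in ST-HSC (0.545% of all tested genes) and 8 of 11 in MPP2 (1.7%). Tpsb2 had 0 reads in both ST-HSC libraries, and Cma1 had 0 in ST-HSC with 4OHT. Several members have known expression in these lineages too, such as Itgam and Fcgr3 in neutrophils and mast cells.

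Megakaryocyte markers (7 of 7 in the table) summed to 21.6, 27.1, 467 and 441, and eosinophil markers (8 of 8) to 34.4, 31.8, 217 and 108. Cd9 and Cd84 are also known from platelets. Erythroid markers (9 of 9) summed to 2.78, 1.58, 149 and 16.9, and Hbb-b1, Hba-a2, Slc4a1 and Car1 had 0 reads in both ST-HSC libraries. Dendritic and class II genes (9 of 11) summed to 189, 277, 76.0 and 171, with Flt3, Zbtb46 and Clec9a at 12 reads or fewer in every library. Lymphoid markers (4 of 10) summed to 81.4, 66.5, 81.1 and 68.8, mostly from Nkg7, and stem and progenitor genes (8 of 8) to 60.5, 116, 80.3 and 83.0.

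**Figure D5:**
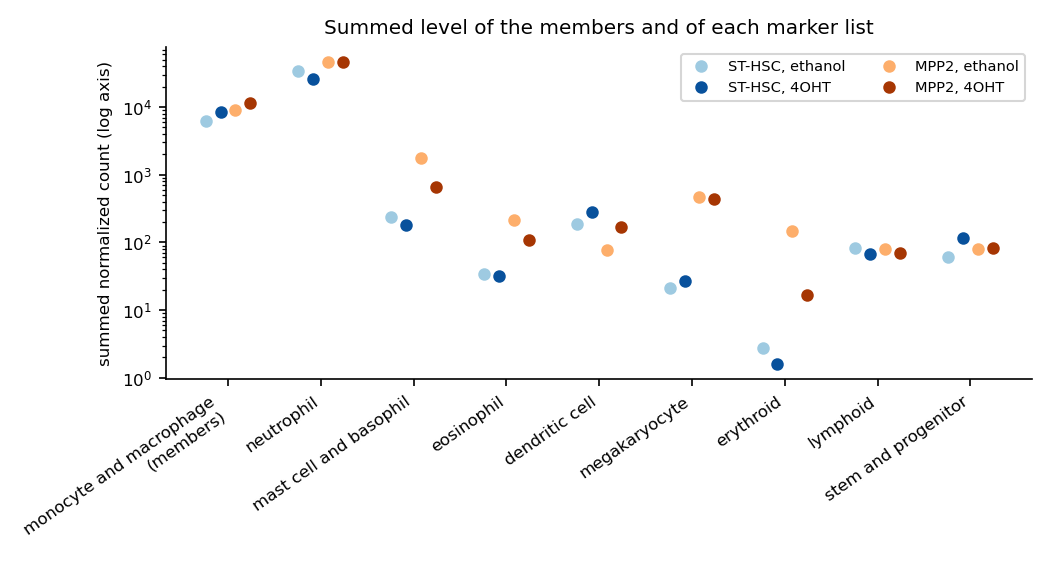
Summed normalized count (log axis) of the 39 members and of each marker list, 1 point per library. The members' sum is lowest in ST-HSC with ethanol and highest in MPP2 with 4OHT, and mast cell, eosinophil, megakaryocyte and erythroid sums are higher in both MPP2 libraries than in both ST-HSC libraries.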

How the data were processed

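RNA from colonies grown in 4 cultures was sequenced, with 1 library per group taken from the labels. Per the labels' protocols, RNA was purified from colony cells, rRNA was depleted from 200 ng of total RNA, and libraries were made with a directional MGI kit. The mm10 build and the tools edgeR, RSEM, Bowtie2 and Trimmomatic 0.36 are named in the submitters' processing notes, without their roles, and the annotation is not given in the sources used here. The deposited table holds a normalized signal per gene and library. All 57292 values (100%) were within 1e-06 reads of a whole multiple of 1 step per column, so whole read counts were recovered from the deposited values by dividing by that step. Counts that RSEM had to share among near-identical genes stay uncertain.

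The 40 members, their role groups and the pathway and marker lists were chosen with earlier results of these data known. Named with values in every library were members that passed either shared test, members that differed 2-fold and reached 10 normalized counts in the higher culture, and the highest of each role per kilobase. From each pathway list the highest gene was named, beside up to 4 called genes per direction, and further members and genes were named after their values were seen.

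The filter kept genes whose mean normalized count was 1 or more. limma 3.58.1 was fitted, without trend or robust options, to log2(normalized count + 0.5) on cell type and treatment, with Benjamini-Hochberg adjustment over all 11370 genes and a threshold of 0.05. The 1 residual degree of freedom of a gene is the difference of its 4OHT response between the cell types. limma combines it with the variance of all tested genes. The SE and p-values therefore measure no spread between replicate cultures, and an unlike response of the cell types counts as noise. Comparisons of 1 library with 1 carry no test, and their ratios have exact conditional binomial 95% intervals on the reads, with no allowance for PCR copies or culture. Alternatives were edgeR 4.0.16, DESeq2 1.42.0, limma with a trend, other constants, filters and scalings, removal of a GC trend, treatment alone and leaving out each library. The code of the fits was run on simulated reads with no cell type effect and the same 4OHT change in both cell types. The data differ from that setting, so the run does not bear on the calls. Positions, exon lengths and GC came from GENCODE M21 on GRCm38 (mm10), which matched 13739 of 14323 genes, and the promoters from RefSeq. Shared sequence is the percentage of a gene's 31-base transcript words found in another gene's transcripts.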

Additional observations from a re-analysis of the deposited data

Results flagged for a closer look

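Itgam is listed because its libraries moved in opposite directions with 4OHT in the 2 cell types. The 4OHT to ethanol ratio was 0.936 in ST-HSC cultures and 1.13 in MPP2 cultures, with counting intervals of 0.908 to 0.966 and 1.11 to 1.16. There is 1 library per group, so the difference was not tested. Neutrophil markers, a lineage that also expresses Itgam, had summed ratios of 0.757 in ST-HSC and 0.989 in MPP2. Gene by gene, 2 of the 15 tested were higher with 4OHT in ST-HSC and 10 in MPP2. The median log2 differences were -0.36 and 0.10. The part of neutrophils in the difference was not tested.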

How the results depend on the processing

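The number of members called as higher for the shared 4OHT effect depended on the test. It was 0 of 37 in limma as reported (0.044% of all tested genes), 11 with a constant of 2 (1.58%), 11 with a mean of at least 5 (1.7%), 18 in limma with a trend (2.96%), 17 in edgeR (2.47%) and 11 in DESeq2 (1.03%). Leaving out a library was run only with treatment alone in the model, where the arm left with 1 library is assumed to vary like the other. That model called 0 members with all libraries and 0 to 0 without each, which says nothing of stability. No member was called as lower for this effect under any setting run. The number called as higher in MPP2 was 16 (9.88% of all tested genes), against 8 with a constant of 0.1 (5.93%), 3 with no filter (3.42%), 10 with equal library totals (7.63%) and 9 with the GC trend removed (5.92%). The number called as lower in MPP2 was 2 (5.31%), against 6 with a constant of 2 (11.4%), 1 with no filter (0.482%), 5 with a mean of at least 5 (14.7%), and 7 in both edgeR (14.0%) and limma with a trend (16.4%). Of the 2-fold counts, that for 4OHT in ST-HSC went from 11 (2.1%) to 7 (1.31%) with a mean of at least 5, where fewer members are tested, and that in MPP2 from 8 (1.32%) to 5 (0.668%) with a constant of 2. Between cell types, the 1 member lower with ethanol (0.862%) became 0 with a constant of 2 (0.431%). The 4 lower with 4OHT (1.71%) became 2 with a constant of 2 (0.783%) or a mean of at least 5 (1.19%), and the 2 higher with 4OHT (5.39%) became 4 with the GC trend removed (5.4%). A larger constant shrinks low genes by construction, and the cause of the other changes was not tested. No effect that passed the test as reported changed sign under the settings run. Shared 4OHT effects that did not pass did so, Clec12a to 0.04 and Cd84 to 0.14 (log2) with the GC trend removed, and others when a library was left out. The model already compares 4OHT with ethanol within each cell type. No paired analysis by replicate number was possible because the labels give each group 1 library and no numbers. Depth limits the genes with few reads, above all Ms4a4c, Ms4a6b, Ms4a7, Fn1, Aif1 and Cx3cr1. DESeq2 gave no adjusted p for the 4OHT effect of Ms4a4c, Ms4a6b, Ms4a7 and Fn1.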
